A study of Mus musculus with 4 samples.

Results

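Atf4, Atf3, Trib3, Sesn2 and Ddit4 are 5 genes of the integrated stress response that act as its transcription factors, its feedback inhibitor and its brakes on growth signalling. They were taken by symbol from a table of 4878 genes measured in mouse embryonic fibroblasts (MEFs, cells grown from embryos, here at passages 5-8), and all 5 were present. They were selected on their measured values in eIF1A knockdown against control cells, so those values are given as a description, without a test. Cells had been transfected by Lipofectamine RNAimax with Si-eIF1A (X+18), siRNA directed at the translation initiation factor eIF1A, or with the Si-Negative control siRNA, giving 2 eIF1A knockdown and 2 control libraries. Each library was made from polyadenylated RNA by bulk MARS-seq, which counts the 3′ ends of mRNAs. No time after transfection and no genotype is given in the labels, nor is it stated that replicate libraries were grown as separate cultures, so p-values below measure only the spread between these libraries, possibly a technical one. Eif1a and Eif1ax, the genes of eIF1A, were not analysed here, so the depth of the knockdown was not checked.

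In the integrated stress response, kinases that sense amino acid shortage, unfolded protein, double-stranded RNA or haem shortage phosphorylate the initiation factor eIF2. General initiation then falls, while short upstream reading frames let ribosomes reach the ATF4 coding sequence more often, and ATF4, a basic leucine zipper (bZIP) factor, switches on genes for amino acid synthesis, uptake and tRNA charging. ATF4 also raises factors that feed back on the response, such as the pseudokinase TRIB3, which binds ATF4 and restrains it, and inhibitors of the growth kinase complex mTORC1, such as sestrin 2 and REDD1. The libraries hold mRNA only, so neither eIF2 phosphorylation nor ATF4 protein was measured.

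Of the 5 genes, Atf4, Atf3, Trib3 and Sesn2 were 4.72-fold to 7.16-fold higher in eIF1A knockdown cells, and Ddit4, which encodes REDD1, was 2.23-fold lower. The 250 bases upstream of the RefSeq start of each gene are shown so that the genes that moved together can be set beside the one that did not. They are RefSeq sequences of build GRCm38.p6, the build also called mm10, each written 5′ to 3′ along its gene. The gene bounds given with the values below are GENCODE's and take in all its transcripts, so the starts need not coincide. The RefSeq start of Atf3 lies 34706 bases inside the GENCODE gene and 7 bases from the start of a shorter GENCODE transcript, and other starts of Atf3 were not searched. In Atf4 the starts are the same, in Sesn2 and Ddit4 the RefSeq start lies 45 and 64 bases inside the gene, and in Trib3 28 bases outside it. Capitals mark motif matches, described after them.
Atf4, chr15:80254934-80255183, plus strand: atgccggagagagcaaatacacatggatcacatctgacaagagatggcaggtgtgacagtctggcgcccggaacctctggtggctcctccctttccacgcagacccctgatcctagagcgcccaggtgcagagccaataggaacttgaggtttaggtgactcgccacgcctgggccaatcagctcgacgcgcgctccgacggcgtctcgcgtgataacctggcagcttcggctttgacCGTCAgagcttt
Atf3, chr1:191183334-191183583, minus strand: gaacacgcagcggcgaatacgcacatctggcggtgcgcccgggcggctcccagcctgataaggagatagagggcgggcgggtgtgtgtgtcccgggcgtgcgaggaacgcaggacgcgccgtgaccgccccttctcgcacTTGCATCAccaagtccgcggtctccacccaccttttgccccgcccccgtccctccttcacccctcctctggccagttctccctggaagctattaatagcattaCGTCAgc
Trib3, chr2:152344061-152344310, minus strand: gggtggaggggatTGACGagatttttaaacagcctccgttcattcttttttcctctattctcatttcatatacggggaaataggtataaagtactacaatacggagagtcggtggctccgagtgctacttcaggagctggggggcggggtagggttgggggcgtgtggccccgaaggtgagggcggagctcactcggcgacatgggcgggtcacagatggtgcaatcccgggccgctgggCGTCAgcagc
Sesn2, chr4:132510457-132510706, minus strand: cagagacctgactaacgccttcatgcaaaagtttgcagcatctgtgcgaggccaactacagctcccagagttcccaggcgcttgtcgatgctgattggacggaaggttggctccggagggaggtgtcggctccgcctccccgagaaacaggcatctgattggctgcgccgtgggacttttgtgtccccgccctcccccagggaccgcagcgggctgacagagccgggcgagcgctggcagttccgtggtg
Ddit4, chr10:59951771-59952020, minus strand: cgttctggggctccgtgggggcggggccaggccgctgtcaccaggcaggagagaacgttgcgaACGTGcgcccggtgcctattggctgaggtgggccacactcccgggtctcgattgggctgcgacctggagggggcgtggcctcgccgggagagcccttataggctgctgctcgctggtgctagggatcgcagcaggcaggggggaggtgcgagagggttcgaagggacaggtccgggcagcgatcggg

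Each window searched ran from 250 bases upstream to 50 bases downstream of the start, on both strands. A composite site of C/EBP and ATF factors, spelled TGATGNAA, was found in Atf3, at −110 to −103, and in Trib3 downstream of the start, at 15 to 22. Its letters are in 3.97% of 32851 mouse promoter windows of the same length. The Atf3 site reads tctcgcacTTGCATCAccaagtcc and the Trib3 site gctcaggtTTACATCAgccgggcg, with the match in capitals and in the reverse direction in both. The shorter site TGACG, which is in 20.8% of the windows, lay reversed as CGTCA just before the start of Atf4 (−12 to −8), Atf3 (−7 to −3) and Trib3 (−10 to −6). It also lay at −237 in Trib3 and at 41 in Atf4. The full cyclic AMP element TGACGTCA, in 1.79% of windows, was in none of the 5. Sesn2 held none of the motifs searched. Ddit4 held only ACGTG, the core bound by hypoxia-inducible factors, at −187 to −183, and this core is in 19.6% of windows. These are matches of letters in a chosen window, not tests of binding, and TGACG is also the left part of TGACGTCA.

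**Figure D1:**
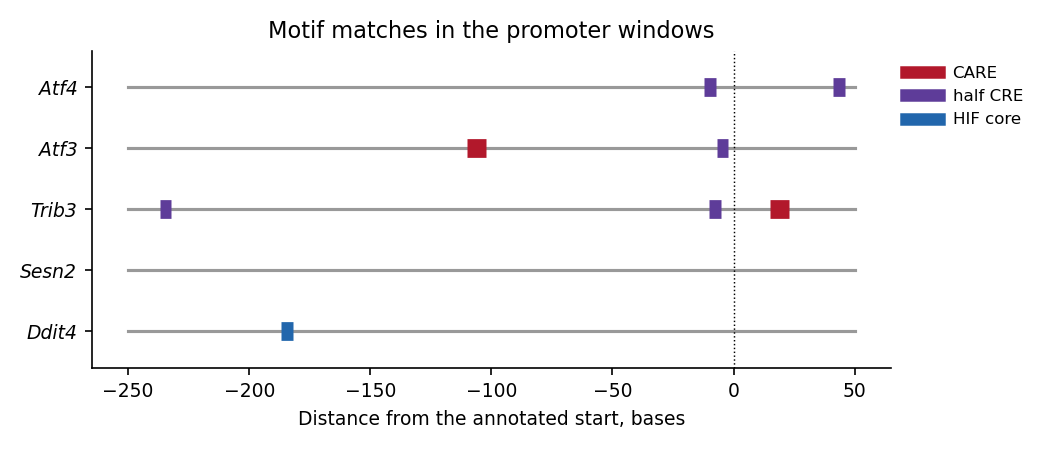
Positions of motif matches in the promoter windows of the 5 genes, from 250 bases before to 50 bases after the annotated start (dotted line); horizontal axis in bases, each block a match on either strand (red CARE for TGATGNAA, purple for TGACG, blue for ACGTG). Atf4, Atf3 and Trib3 each have TGACG, reversed, within 12 bases before the start, Sesn2 has no match and Ddit4 has ACGTG alone.

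Atf4 (chromosome 15, 80255184 to 80257541, plus strand) is the factor at the centre of the response. It had 3959 and 3432 normalised counts in the eIF1A knockdown libraries, against 517 and 642 in the control libraries. Both knockdown libraries lay far above both controls, and the ratios of a knockdown to a control library ran from 5.35 to 7.66. The group means were 3696 ± 373 in knockdown and 579 ± 88.6 in control cells (SD, n = 2 each), and the log2 fold change was 2.68 (standard error 0.22). Here and below a normalised count is the deposited value, reads divided by a factor for the library, and a log2 fold change is knockdown minus control on the log2(normalised count + 1) scale. Its standard error is that of the limma fit described below, which draws each gene's variance towards that of genes of similar level. The standard errors therefore do not rank the genes by how well their own replicates agreed. Atf4 rested on 4905 and 5052 reads in knockdown and 525 and 791 reads in control libraries, the deepest support of the 5. Its summed reads gave a ratio of 6.27, with an exact 95% interval of 5.92 to 6.65 that covers counting error only. This and the other counting intervals take each read as a separate molecule, which could not be checked. Since these are whole cultures, more cells with the transcript and more transcript per cell cannot be told apart.

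Atf3 (chromosome 1, 191170296 to 191218039, minus strand) is a stress-induced bZIP factor that binds ATF and cyclic AMP response sites. It had 158 and 269 normalised counts in knockdown libraries and 31.5 and 58.4 in control libraries. The groups did not overlap, but the libraries of each group stood well apart, and the ratios of a knockdown to a control library ran from 2.71 to 8.54. The means were 214 ± 78.3 in knockdown and 45 ± 19 in control cells (SD, n = 2 each), giving a log2 fold change of 2.24 (standard error 0.33).

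Trib3 (chromosome 2, 152337422 to 152344032, minus strand), the feedback inhibitor of ATF4, had 567 and 697 normalised counts in knockdown libraries and 68.9 and 110 in control libraries. Every knockdown library was at least 5.17 times and at most 10.1 times a control library. The means were 632 ± 92.1 in knockdown and 89.2 ± 28.8 in control cells (SD, n = 2 each). Its log2 fold change, 2.84 (standard error 0.25), ranked 7 from the top of the 4605 genes tested, and Atf4 ranked 13, Sesn2 21 and Atf3 37, given as a description.

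Sesn2 (chromosome 4, 132492032 to 132510501, minus strand) encodes sestrin 2, which restrains mTORC1 through the GATOR complexes when leucine is short. It had 82.3 and 101 normalised counts in knockdown libraries and 13.8 and 17.9 in control libraries. The groups were wide apart, with knockdown to control ratios of 4.61 to 7.30, although the control values came from only 14 and 22 reads. The means were 91.4 ± 12.9 in knockdown and 15.8 ± 2.88 in control cells (SD, n = 2 each), for a log2 fold change of 2.46 (standard error 0.36). The ratio of summed reads was 5.76, with a counting interval of 4.05 to 8.41, the widest relative to its value among the genes that were higher.

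Ddit4 (chromosome 10, 59949669 to 59951834, minus strand) encodes REDD1, which restrains mTORC1 through the TSC complex and is known as a target of hypoxia, glucocorticoids, p53 and ATF4. It went the other way, with 94.4 and 76.8 normalised counts in knockdown libraries and 207 and 177 in control libraries. Both knockdown libraries lay below both controls, by 1.87-fold to 2.69-fold. The means were 85.6 ± 12.5 in knockdown and 192 ± 21 in control cells (SD, n = 2 each), and the log2 fold change was −1.16 (standard error 0.26). Control exceeded knockdown 2.24-fold in summed reads (230 reads in knockdown and 428 in control libraries, interval 1.91 to 2.65).

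**Figure D2:**
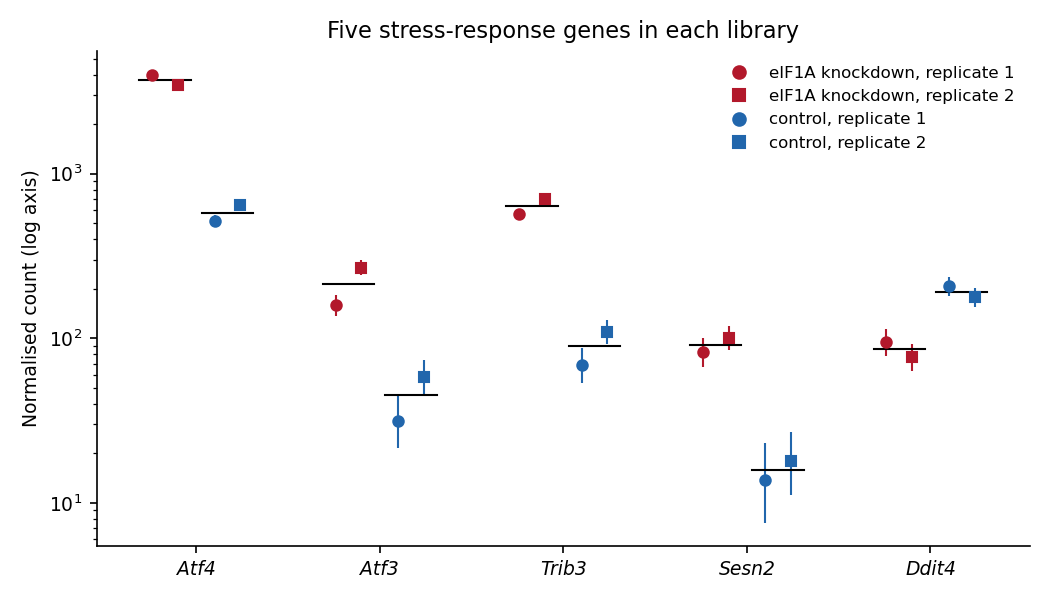
Normalised counts (log axis) of the 5 genes, with circles for replicate 1 and squares for replicate 2 of eIF1A knockdown (red) and control (blue) libraries, a line at each group mean and bars for the exact 95% Poisson interval of the reads. The red points lie above the blue in Atf4, Atf3, Trib3 and Sesn2 and below them in Ddit4, where the means are 85.6 and 192.

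In the fit across all 4605 genes tested (limma, calls at a Benjamini-Hochberg adjusted p under 0.05), 15.9% were called higher in knockdown and 21.6% lower. Atf4, Atf3, Trib3 and Sesn2 are among the first and Ddit4 among the second, and nothing is read from this, since the same contrast chose the 5 genes. In 32.4% of genes both knockdown libraries lay above both controls, and in 35.5% both lay below. The numbers behind the calls were 733 higher and 996 lower. With the library totals made equal they were 1299 and 603, and the median log2 fold change of all genes was 0.34 in place of −0.01. At equal totals the log2 fold change of Ddit4 was −0.81 and those of the other 4 stood between 2.59 and 3.19. With the trend on transcript GC content removed, that of Ddit4 was −0.58, and Ddit4 was not among the genes called lower. In that setting Trib3 and Sesn2, whose longest transcripts have 58.2% and 58.7% GC against 57.9% in Ddit4, stood at 3.44 and 3.10, and Atf4 and Atf3, with 55.5% and 52.2% GC, at 3.07 and 2.34. The sign of each of the 5 was the same in all 17 other settings tried, some of which cannot alter a log2 fold change. Those change only the filter on low values, the replicate block or the variance trend.

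**Figure D3:**
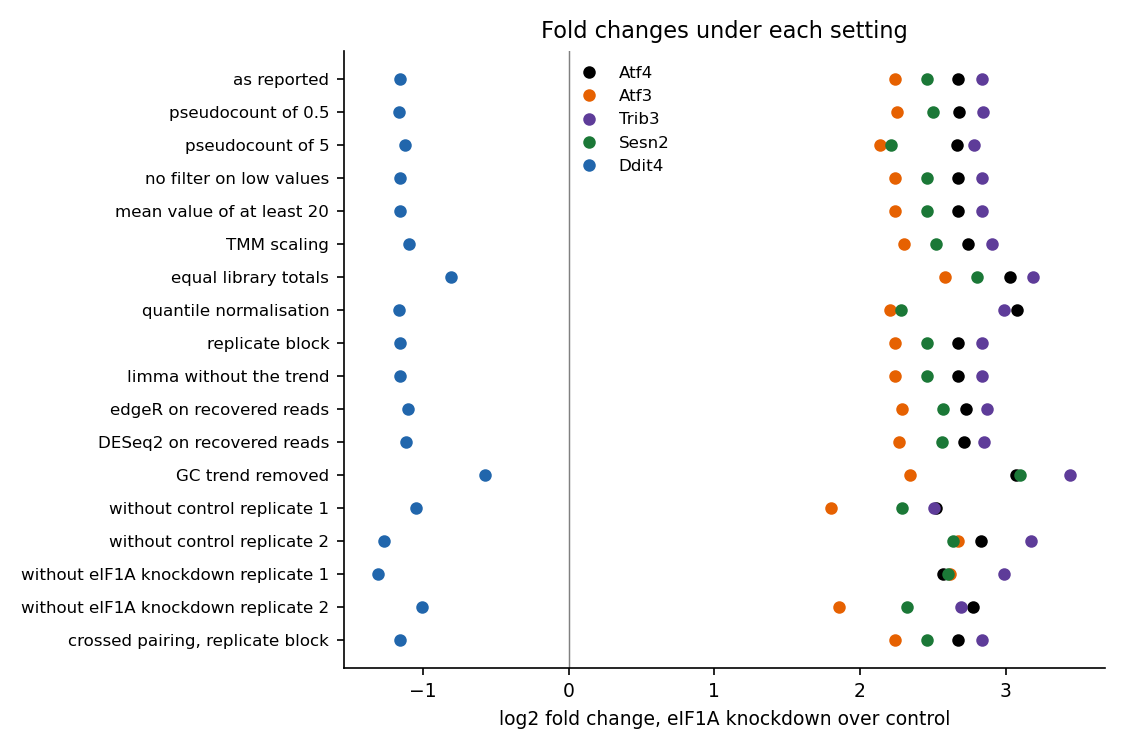
Log2 fold change of the 5 genes, eIF1A knockdown over control, as reported (top) and under 17 other settings, a point per gene and setting. Ddit4 stays left of 0 everywhere, nearest to it at −0.58 with the GC trend removed, and the other 4 genes stay between 1.803 and 3.44.

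Counts of the other genes were also set against Atf4 within each library, where the factor for the library cancels. These ratios rest on the counts that chose the genes, so they describe the same difference on another scale and add no evidence for it. For every 100 Atf4 counts there were 14.3 and 20.3 Trib3 counts in knockdown libraries and 13.3 and 17.1 in control libraries, so the groups overlapped. Sesn2 stood at 2.08 and 2.93 per 100 in knockdown and at 2.67 and 2.78 in control libraries, again overlapping. Atf3 stood at 4.0 and 7.84 per 100 in knockdown and at 6.10 and 9.10 in control libraries, which overlapped too. Ddit4 stood at 2.39 and 2.24 per 100 in knockdown and at 40 and 27.6 in control libraries, 14.6 times as many in controls on average. These ratios compare libraries and not the levels of a pair of genes, since 3′ counts of different genes need not be on the same scale.

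**Figure D4:**
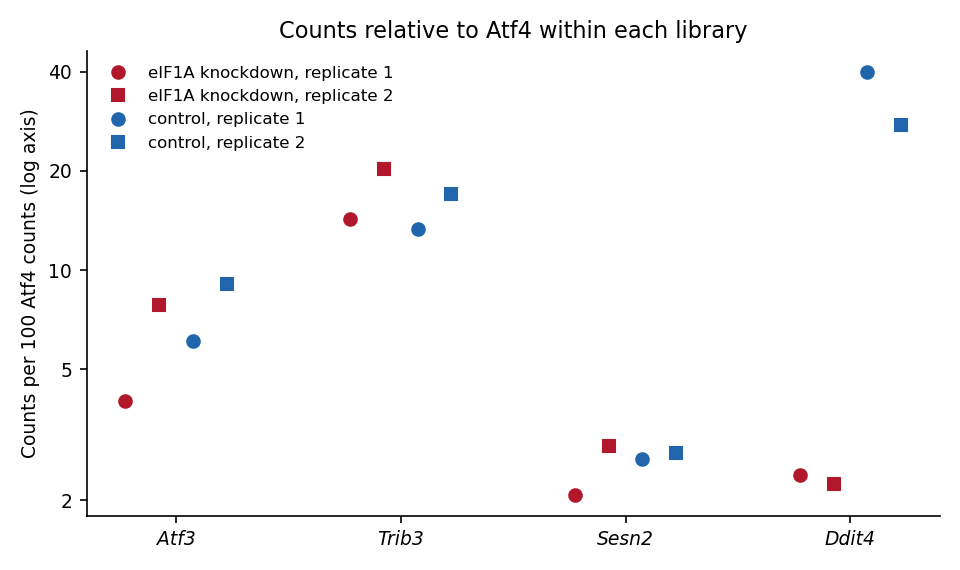
Counts of Atf3, Trib3, Sesn2 and Ddit4 per 100 Atf4 counts (log axis) in each library, eIF1A knockdown in red and control in blue, circles for replicate 1 and squares for replicate 2. The groups overlap for Atf3, Trib3 and Sesn2, while Ddit4 has 2.24 to 2.39 in knockdown and 27.6 to 40 in control libraries.

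Atf3 and Sesn2 were set against Trib3 in the same way. Atf3 had 27.9 and 38.6 counts per 100 Trib3 counts in knockdown libraries and 45.7 and 53.3 in control libraries, 1.49 times as many in controls on average. Sesn2 had 14.5 and 14.4 per 100 in knockdown and 20 and 16.3 in control libraries, 1.25 times as many in controls on average. Neither set overlapped, but the Sesn2 control values rest on the 14 and 22 reads given above. Atf4 had 699 and 492 counts per 100 Trib3 counts in knockdown and 750 and 586 in control libraries, which overlapped. Trib3 had the largest fold change of the genes chosen, so lower ratios to it in knockdown partly follow from that choice. Like the ratios to Atf4, they add no evidence.

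The spread between libraries of the same group was not used to choose the genes. Replicate 2 exceeded replicate 1 in Atf3 by 1.70-fold in knockdown (counting interval 1.43 to 2.03) and by 1.86-fold in control libraries (1.21 to 2.91). Gaps larger than these were seen in 10.9% of all genes tested in knockdown and 10.6% in control libraries, so Atf3 was among the less repeatable genes in both groups. In Trib3 the corresponding ratios were 1.23 in knockdown and 1.59 in control libraries. In Sesn2 they were 1.22 and 1.30, with counting intervals that both include 1 (0.94 to 1.59 and 0.63 to 2.74). In Atf4 replicate 2 was at 0.87 of replicate 1 in knockdown and at 1.24 in control libraries, and in Ddit4 at 0.81 and 0.86. The median gap of all genes was 1.20-fold in knockdown and 1.24-fold in control libraries. Atf3 is accordingly the gene whose fold moved most when a library was left out, with 3.49-fold when control replicate 1 was dropped and 6.38-fold when control replicate 2 was. Trib3 ran from 5.69-fold to 9.01-fold without the same libraries, while Atf4 (5.73-fold to 7.12-fold), Sesn2 (4.88-fold to 6.22-fold) and Ddit4 (2.01-fold to 2.47-fold lower) moved less.

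The lists that follow are read against the 15.9% of all genes called higher and the 21.6% called lower. They were written from general knowledge with earlier results of these data known, so their shares are a description. Upstream of ATF4, 14 genes of the sensing kinases, their partners and the eIF2 machinery were listed. Of these 8 were present and tested, and 1 rose (12.5%, near the share of all genes) and 0 fell, with a median log2 fold change of 0.41, against −0.01 over all genes. The gene that rose was Eif2s3x, the gamma subunit of eIF2, at 31.5 and 34.0 normalised counts in knockdown and 8.86 and 9.74 in control libraries (adjusted p = 0.00719), and without knockdown replicate 1 or 2 no member was called. It has an annotated pseudogene copy. Eif2b4 and Eif2b5, subunits of the exchange factor that recharges eIF2, stood at −0.36 and 0.18 and did not pass. Eif2b3 at 0.95 and Eif2s2 at 1.28 did not pass either, and Eif2s2 had only 1 and 7 reads in control libraries. Of the 8 tested, 6 had a positive log2 fold change and 2 a negative one. The eIF2 kinase genes Eif2ak1 to Eif2ak4 were not analysed here.

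Other bZIP factors, the family of ATF4 and ATF3, went both ways. Of 39 listed, 18 were present and 17 tested, 6 rose (35.3%) and 2 fell (11.8%), with a median of 0.34. Jun, a partner of ATF3 in AP-1 complexes, rose 4.93-fold to 132 and 162 normalised counts in knockdown libraries, against 27.6 and 30.0 in controls (adjusted p = 1.04e-05). Jdp2, a repressor that binds AP-1 sites, rose 3.0-fold and Atf5, which is itself under upstream reading frames, 2.35-fold. Cebpb, a C/EBP factor that pairs with ATF4 on composite sites, rose 1.74-fold, but Tmem189 overlaps its end on the opposite strand. The limma call of Cebpb was lost without the variance trend (adjusted p = 0.0596) and without knockdown replicate 2. Jund, a further AP-1 subunit, fell 2.10-fold, but with the GC trend removed its adjusted p was 0.943. Gm11175 overlaps the end of Jund on the opposite strand. Tef, a clock-controlled factor, fell 1.87-fold, and its limma call was lost at equal library totals (adjusted p = 0.0601) and without knockdown replicate 2. Without knockdown replicate 2 the counts were 3 higher and 1 lower. Ddit3, which encodes CHOP, was not analysed here.

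Of the other feedback and effector genes of the response, 6 of 20 listed were present and 5 tested, with a median of 1.13. Of these, 3 rose (60%, against 15.9% of all genes) and 1 fell (20%, near the 21.6% of all genes). Chac1, which breaks down glutathione and is an ATF4 target, had 990.5 and 1017 normalised counts in knockdown libraries and 248 and 269 in control libraries (3.88-fold, adjusted p = 8.89e-07). Nupr1, a small stress-induced nuclear protein, rose 5.46-fold, though its control libraries differed among themselves at 29.5 and 70.6. Its fold was 3.57 to 8.37 with a library left out, the highest without control replicate 2 and the lowest without control replicate 1. Tnfrsf10b, a death receptor, rose 2.18-fold, and its limma call was lost without the variance trend (adjusted p = 0.0591). Sqstm1, an autophagy receptor also known as an ATF4 target, fell 1.86-fold, and Mrnip overlaps its end on the opposite strand. The limma call of Sqstm1 was lost under quantile normalisation (adjusted p = 0.112) and without the variance trend (0.0598). It was also lost once the GC trend was taken out (0.0565) or knockdown replicate 1 was left out. Gadd45b stood at −0.18 and did not pass, and Ern1 was under the filter on low values. Ppp1r15a, the phosphatase subunit that reverses eIF2 phosphorylation, was not analysed here.

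Metabolic targets of ATF4 were read as a set of 3 lists, also written with earlier results of these data known. Of 37 enzymes, amino acid transporters and tRNA synthetase and export genes listed, 31 were present and tested, 27 rose and none fell, so that 87.1% were called higher, against 15.9% of all genes. All 31 had a positive log2 fold change, as did 49.4% of all genes tested, and their median was 1.37. Among the enzymes 9 of 12 rose (median 1.66), led in p by Mthfd2, Asns, Gpt2 and Psph. Asns, which makes asparagine, had 1660 and 1337 normalised counts in knockdown and 314 and 386 in control libraries (4.27-fold). Gpt2, a mitochondrial alanine aminotransferase, rose 5.88-fold, and Psph, the last enzyme of serine synthesis, 4.37-fold. Among the transporters all 7 present rose (median 1.08), although only 4 did without knockdown replicate 2. Slc7a3, which carries cationic amino acids, rose 11.7-fold, Slc7a1, its ubiquitous relative, 4.16-fold, and Slc38a2 and Slc1a4, which carry small neutral amino acids, 2.58-fold and 2.12-fold. Of the tRNA synthetases, which charge tRNAs with amino acids, 11 of 12 rose (median 1.40), with Nars at 4.20-fold, Tars at 3.81-fold, Iars at 3.25-fold and Cars at 3.12-fold. The log2 fold change of Atf4 and of Trib3 was exceeded by 1 of the 31 targets, Slc7a3, that of Sesn2 by 2 and that of Atf3 by 3. That is a description only, since Atf4, Trib3, Sesn2 and Atf3 were chosen on this same contrast.

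**Figure D5:**
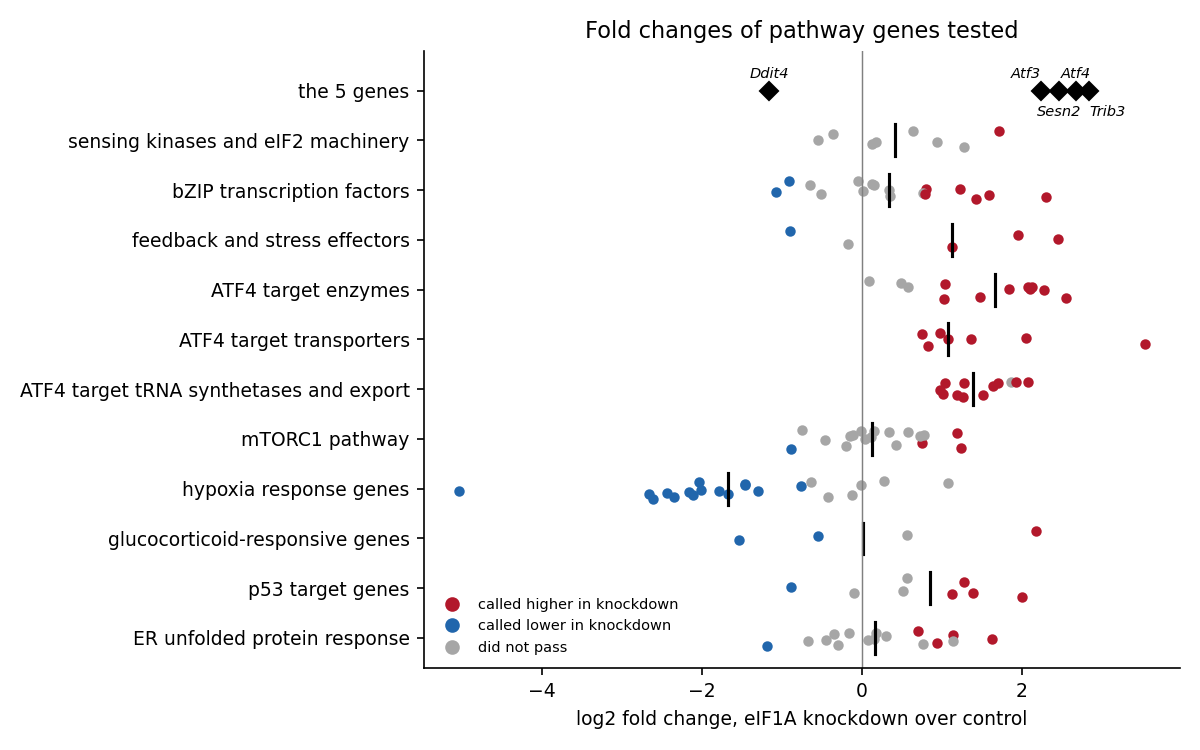
Log2 fold changes, eIF1A knockdown over control, of the 5 genes (diamonds) and of the tested genes on each list, red where called higher, blue where called lower and grey where the test was not passed, with a bar at the list's median. Of the diamonds, Atf4, Atf3, Trib3 and Sesn2 lie right of 0 and Ddit4 left of it. The ATF4 target lists lie right of 0, and the hypoxia list, with a median of −1.68, lies mostly left. No link between a list and the 5 genes was tested.

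Sesn2 and Ddit4 both act on mTORC1. Of 37 genes listed for that pathway, 19 were present and 18 tested, and 3 rose (16.7%) and 1 fell (5.56%), with a median of 0.13. The share that rose is near the 15.9% of all genes. Nprl3, a subunit of the GATOR1 complex on which sestrins act, rose 2.28-fold (adjusted p = 0.00435), but Mpg overlaps its end on the opposite strand. Lamtor3, a lysosomal scaffold of mTORC1, rose 2.36-fold and Mtor, the kinase, 1.69-fold, and both calls were lost without knockdown replicate 1 (adjusted p = 0.0714 and 0.272), that of Lamtor3 also with the GC trend removed (0.0903) and that of Mtor without control replicate 2 (0.114) or knockdown replicate 2 (0.0524). Sesn1, a relative of Sesn2, was the member that fell, at 42.0 and 33.3 normalised counts in knockdown libraries against 75.8 and 64.9 in control libraries. The call of Sesn1 was marginal (1.85-fold, adjusted p = 0.0389), and it was lost without control replicate 1 (0.142), without knockdown replicate 1 (0.0686) or 2 (0.238) and with edgeR (0.0523). Without knockdown replicate 1, 1 member of the list was called higher. Tsc1 and Tsc2, the complex through which REDD1 acts (Tsc2 with Pkd1 on the opposite strand), stood at −0.14 and −0.11 and did not pass. At equal library totals 8 members were called higher and none lower.

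Ddit4 is known to answer to signals besides ATF4, and lists of genes under those signals were read beside it. Whether any of these signals bears on the lower Ddit4 counts was not tested. Of 38 hypoxia response genes 24 were present and 21 tested. The fit called 15 lower (71.4%, against 21.6% of all genes) and 0 higher, and the median was −1.68. Slc16a3, the lactate exporter, had 169 and 123 normalised counts in knockdown and 4666 and 4863 in control libraries. Ldha, lactate dehydrogenase, which has annotated pseudogenes, fell 6.30-fold, Pfkl, phosphofructokinase, 6.09-fold, and Pkm, pyruvate kinase, 5.07-fold. Vegfa, which is known to be under both hypoxia and ATF4, stood at 0.28 and did not pass. Nor did Hk2 (1.08), Egln1 (−0.64), Bnip3l (−0.43), Kdm3a (−0.12) and Higd1a (−0.01). Of 15 glucocorticoid-responsive genes 4 were present and tested, 1 rose (25%, against 15.9% of all genes) and 2 fell (50%, against 21.6%). Sgk1, a kinase, rose 4.53-fold, and the clock gene Per1 fell 2.90-fold (1.86-fold when knockdown replicate 2 was left out, 4.51-fold when knockdown replicate 1 was). The call of Per1 was lost once the GC trend was taken out (adjusted p = 0.0879) and in limma fitted without its variance trend (0.0528). Nfkbia, the inhibitor of NF-κB, fell 1.46-fold with an adjusted p of 0.0492, while Tsc22d3, a classical glucocorticoid target, stood at 0.57 and did not pass. The median of that list, 0.01, became 0.36 at equal totals, where 2 members were called higher and 1 lower. The call of Nfkbia was lost in most other settings, among them edgeR (adjusted p = 0.0938), and without control replicate 1 (0.105) or 2 (0.0678) or knockdown replicate 2 (0.378). Without control replicate 1 the list had 2 members higher and 1 lower.

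Of 26 p53 target genes, another class that holds Sesn2 and Ddit4, 9 were present and 8 tested, and 4 rose (50%) and 1 fell (12.5%), with a median of 0.85. Epha2, a receptor kinase, rose 4.0-fold, Plk2 2.63-fold and Mdm2, which degrades p53, 2.43-fold, and the lowered member was Sesn1. Without knockdown replicate 2, 2 members were called higher, and Mdm2 was not called once the GC trend was taken out (adjusted p = 0.0663). Of 26 genes that answer unfolded protein in the endoplasmic reticulum 18 were present and 16 tested, 4 rose (25%, against 15.9% of all genes) and 1 fell (6.25%, against 21.6%), with a median of 0.17. Hspa5, the chaperone BiP, stood at 633 and 1416 normalised counts in knockdown libraries and 477 and 506 in control libraries, and its call (adjusted p = 0.0119) was lost without knockdown replicate 2 (0.414) or once the GC trend was taken out (0.186). Dnajb11, its co-chaperone, rose 2.21-fold and P4hb, a protein disulfide isomerase, fell 2.28-fold. The limma call of P4hb was lost under quantile normalisation (adjusted p = 0.108). Without knockdown replicate 2 the counts were 1 higher and 2 lower, and without control replicate 2 there were also 2 lower.

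Likeness of pattern was measured as the Euclidean distance between the 4 library values on the log2 scale, each gene centred on its mean. It was taken over 3905 genes with a mean of at least 20 normalised counts, leaving out genes known only by clone-type symbols (Gm or Rik names). With 4 libraries in 2 groups it mostly reflects the group difference and how the replicates fell. Nearest to Atf4 were Ccnd1, which encodes cyclin D1 (distance 0.29), Arl4c, a small GTPase (0.31), Sesn2 (0.41), Inip, a subunit of a complex that binds single-stranded DNA (0.42), and Rrp12, a factor in pre-ribosome export (0.43). Trib3 ranked 6, Atf3 59 and Ddit4 3472. The places of Sesn2, Trib3, Atf3 and Ddit4 largely follow from the group difference on which they were chosen, and add no evidence. Nearest to Ddit4 were Elovl1, a fatty acid elongase, at a distance of 0.019, and then Yif1a, a protein of transport between endoplasmic reticulum and Golgi (0.066), Tfeb, a factor for lysosome genes (0.074), Snap47, a SNARE protein (0.077), and Lasp1, an actin-binding protein (0.080). Tfeb had 108 and 84.2 normalised counts in knockdown and 243 and 199 in control libraries.

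Facts of the libraries bear on all of these values. The 4 libraries held 2152331 to 2595625 reads over the genes of the table, with a median of 120 to 173 reads a gene, and no gene was at 0 in any library. Of 16 fibroblast markers 4 were present. Of these Vim and S100a4 fell, Fn1 and Prrx1 did not pass, and their summed level was 9951 and 12640 normalised counts in knockdown and 23080 and 17640 in control libraries. The part of this difference in the results above was not tested. Without control replicate 1 or without knockdown replicate 1 only 1 of them was called. None of the listed macrophage, endothelial, epithelial or skeletal muscle markers was analysed here. Of 7 neural markers Map2 and Nes were present, summing to 132 and 151 in knockdown and 238 and 245 in control libraries, and Nes, also made by dividing fibroblasts, was called lower, though not without knockdown replicate 1 or 2. The limma call of Nes was also lost at equal library totals (adjusted p = 0.223), with the GC trend removed (0.257) and without the variance trend (0.0591).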

How the data were processed

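The deposited values were used as a signal that its file name calls normalised counts, made by the authors by dividing reads by 1 factor per library. All values of each column were whole multiples of 1 step (100% within 0.01 read), so reads were recovered. The submitters' processing notes list STAR, HTSeq, DESeq2, cutadapt 1.8.3 and bcl2fastq 2.17.1.14, and the build mm10. Strand setting, use of molecular identifiers and gene selection: not given in the sources used here. No gene was at 0 in any library. Columns were matched to samples by name.

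Genes with a mean of at least 5 (4605) were tested on log2(value + 1) by limma 3.58.1 in R 4.3.3, the variance following the mean, with Benjamini-Hochberg adjustment over all of them and a threshold of 0.05. Alternatives on recovered reads were edgeR 4.0.16 (807 higher, 909 lower) and DESeq2 1.42.0 (620 and 828), and the fits were tested on simulated data. Members and lists were chosen with earlier results of these data known. Named from each list were up to 4 genes of smallest p, members completing a count of 5 or fewer, and the 5 genes nearest to Atf4 and to Ddit4; Cebpb, Sqstm1, Vegfa, Tsc1, Tsc2, Eif2b5 and other members of known role were named after their values were seen. Replicates differed by more than counting error (chi-square over its degrees of freedom 14.9 in knockdowns and 18.5 in controls), and each library was counted. This does not show that they are independent cultures. Symbols were matched to GENCODE M21 (4873 of 4878, 132 through an older symbol), of build mm10; none of the 5 genes has exons of another gene in its last 1000 bases or a pseudogene named after it. Promoters of all 5 matched by symbol in the RefSeq table.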

Additional observations from a re-analysis of the deposited data

How the results depend on the processing

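Of 85 values of the 5 genes under 17 other settings, 70 moved by less than the gene's SD in the limma fit, 15 moved by more and 0 changed sign. That SD is drawn towards those of genes of similar level, so it is not the gene's own spread between replicates. The 70 include settings that change only the filter on low values, the replicate block or the variance trend. Those cannot alter a log2 fold change in this balanced design, so they say nothing of its stability. At equal library totals the log2 fold changes were 3.03 for Atf4, 2.59 for Atf3, 3.19 for Trib3 and −0.81 for Ddit4, and 1299 genes were higher and 603 lower. With the GC trend removed they were 3.07 for Atf4, 3.44 for Trib3, 3.10 for Sesn2 and −0.58 for Ddit4, and 662 genes were lower. Quantile normalisation gave 3.08 for Atf4, and limma without the trend called 655 genes lower. The cause of these shifts was not tested. With a library left out, Atf4 ran from 2.52 to 2.83, Atf3 from 1.803 to 2.67, Trib3 from 2.51 to 3.17, Sesn2 from 2.29 to 2.64 and Ddit4 from −1.31 to −1.01; genes higher ran from 438 to 758, the lowest without knockdown replicate 2, and genes lower from 715 to 987. A library left alone in its group was assumed to vary like the others.

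The replicate numbers do not pair the libraries by any label, and same-numbered libraries deviated with a correlation of −0.13 across genes. With the replicate number as a block, 641 genes were higher and 918 lower. A crossed pairing, chosen after seeing the data, gave 891 and 1154. The block left the 5 log2 fold changes as reported, which is fixed in advance in a balanced design.

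Sesn2 in controls rested on 14 and 22 reads, the fewest of the 5, so its counting error is the widest, while Atf3 varied most between libraries.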
